A study of Mus musculus with 16 samples.

Results

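The 10 transcripts described here handle iron, heme and oxygen in muscle: the iron regulatory proteins Ireb2 and Aco1, the transferrin receptor Tfrc, the ferritin chains Fth1 and Ftl1, the heme enzymes Alas1, Alas2 and Fech, the cytochrome heme lyase Hccs, and myoglobin, Mb. They were taken by name from a table of 23440 genes, and each name matched 1 row. Ireb2 and Hccs were chosen because they were higher after training in these same libraries, so their training values are given as a description with no test. The transcripts were measured by RNA sequencing of stranded, poly(A)-selected libraries from gastrocnemius, a calf muscle built largely of fast fibres, taken from 16 male C57Bl6/J mice at 20 weeks of age. The 4 groups held 4 mice each: Il13-/- mice (KO) trained by daily treadmill running for 5 weeks, KO mice left untrained, wild-type (WT) mice trained in the same way, and WT mice left untrained. Il13 encodes interleukin-13, a type 2 cytokine, and the study asked how endurance training changes muscle transcripts in its absence. How the knockout allele was made, and whether litters were shared, is not given in the sources used here.

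Iron enters most cells bound to transferrin, through the transferrin receptor, and iron that is not needed at once is stored inside ferritin shells. A pair of RNA-binding proteins, IRP1 and IRP2, sense iron shortage and bind a stem-loop, the iron-responsive element (IRE): in the 5′ untranslated region it blocks translation of ferritin and ALAS2, and in the 3′ untranslated region it protects the Tfrc mRNA from decay. Heme is built from glycine and succinyl-CoA, with the first and last steps in mitochondria, and is placed in cytochromes for respiration and in myoglobin, the oxygen-binding protein that gives oxidative muscle its red colour. Much of this control acts on translation and protein stability, which mRNA levels do not show.

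Matches to the IRE in the members are shown because the stem-loop is what joins receptor, storage and heme synthesis in 1 circuit. A search of GENCODE M21 transcripts (GRCm38, the same assembly as mm10) looked on the sense strand for an unpaired C, 5 bases, the loop CAGTGN, and 5 bases pairing with the first 5, with G-T pairs allowed. Capitals mark the loop, letters are written as DNA, and each line reads 5′ to 3′.
Fth1 5′ UTR, chr19:9982732-9982760, plus strand: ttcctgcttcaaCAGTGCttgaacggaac
Ftl1 5′ UTR, chr7:45459779-45459807, minus strand: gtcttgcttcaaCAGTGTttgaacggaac
Alas2 5′ UTR, chrX:150547458-150552149, plus strand, across a splice junction: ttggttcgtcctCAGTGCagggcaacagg
Tfrc 3′ UTR, chr16:32631219-32631247, plus strand: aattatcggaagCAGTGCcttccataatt
Tfrc 3′ UTR, chr16:32631598-32631626, plus strand: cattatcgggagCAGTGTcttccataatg
Tfrc 3′ UTR, chr16:32631663-32631691, plus strand: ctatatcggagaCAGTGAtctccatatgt
Tfrc 3′ UTR, chr16:32631710-32631738, plus strand: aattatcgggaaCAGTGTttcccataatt
Each ferritin chain and Alas2 held 1 match and Tfrc held 4, while the letters were not found in Ireb2, Aco1, Alas1, Fech, Hccs or Mb. The letters were also not found in Epas1 and Slc11a2, which are listed below among the IRE mRNAs. The search can therefore miss elements, and the matches shown need not be all of them. Of 21877 protein-coding genes searched, 0.142% held a match in the 5′ untranslated region and 0.59% in the 3′ untranslated region. A match is a description of the letters, and binding was not measured.

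Levels are in RPKM, which divides a gene's reads by its length and by the library total and so allows comparison between genes. The totals behind these values, worked out from the smallest steps in each column, lay between 16307025 and 20074677 reads. The genes of the table held 75.6% to 78.3% of these totals in KO trained, 77.2% to 81.7% in KO untrained, 76.0% to 83.5% in WT trained and 79.9% to 83.3% in WT untrained libraries, and WT trained library 1, at 83.5%, stood apart from the other libraries of its group. That library also had the lowest weight of all 16, 0.309, when weights were estimated per library. The fast-fibre markers Myh4 and Tnnt3 ran from 7787 to 10715 and from 14603 to 19135 RPKM, among the highest levels of the table, with the slow myosin Myh7 at 68.5 RPKM or less. Il13 had at most 2 reads in any library and none in the 8 WT libraries, so it could not check the genotype labels. All 10 members passed the filter of 1 RPKM in at least 4 libraries, with which 10171 genes were tested by limma on log2(RPKM + 0.1). Differences below are on that log2 scale, with Benjamini-Hochberg adjusted p over all genes tested, and a call is an adjusted p under 0.05.

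Mb was the most abundant member, with a mean of 1787 RPKM over the 16 libraries, the 20th highest of the table. Fth1 followed at 939.5 RPKM and Ftl1 at 201 RPKM, then Fech at 54.1, Alas1 at 46.7, Tfrc at 26.6, Hccs at 8.16, Aco1 at 4.59, Ireb2 at 4.33 and Alas2 at 1.49 RPKM. Most of this order held in every library, with 2 exceptions. Fech exceeded Alas1 in 15 of 16 libraries, and Aco1 exceeded Ireb2 in 11 of 16. The spread within groups differed widely: the median coefficient of variation within a group was 26.3% for Alas2, 20.5% for Ftl1, 19% for Tfrc and 17.9% for Mb, against 4.49% for Hccs, 4.9% for Fech, 5.56% for Fth1 and 5.57% for Ireb2.

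**Figure D1:**
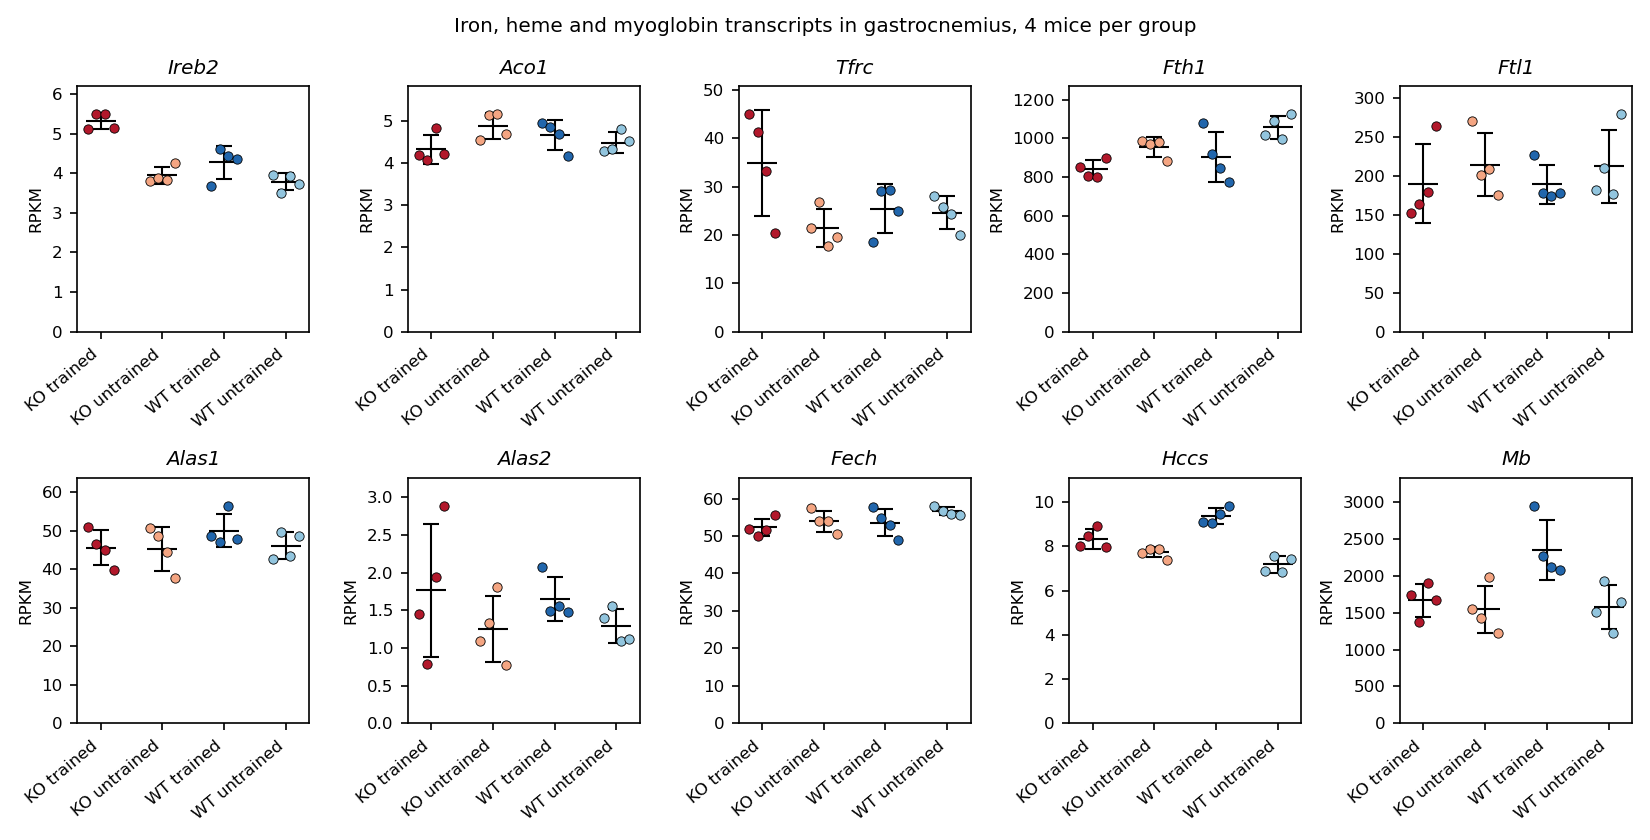
Levels of the 10 transcripts in RPKM (vertical axes, each starting at 0) in 4 libraries per group, ordered KO trained, KO untrained, WT trained and WT untrained from left to right. Points are libraries in the order of their replicate numbers, and bars give the mean ± SD of 4. Ireb2 is highest in the 4 KO trained libraries and Mb in the 4 WT trained libraries, while Ftl1, Alas1 and Alas2 overlap between all groups.

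Ireb2 (mm10 chromosome 9, 54863755 to 54912534, plus strand) encodes IRP2, the regulatory protein that is degraded when iron is plentiful, and was highest in KO trained muscle. It had 5.11, 5.48, 5.49 and 5.15 RPKM in KO trained libraries, against 3.80, 3.87, 3.83 and 4.26 RPKM in KO untrained libraries. Every KO trained value lay above every KO untrained value, and the difference was 0.42 (SE 0.08). In WT it had 3.67, 4.61, 4.44 and 4.36 RPKM in trained libraries, against 3.96, 3.50, 3.94 and 3.73 RPKM in untrained libraries, a difference of 0.17 (SE 0.08). The WT groups overlapped because WT trained library 1 lay below 3 of the 4 untrained libraries. With the share of reads in the table's genes as a covariate, an alternative chosen after seeing the data, the training difference of Ireb2 was 0.30 in KO and 0.03 in WT. That share was itself lower after training, with means of 76.7% in KO trained and 79.9% in KO untrained libraries. In WT the means were 78.6% in trained and 82.3% in untrained libraries. The covariate can therefore take out part of a training difference, here and below.

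Aco1 (chromosome 4, 40143265 to 40199009, plus strand) encodes IRP1, which works as a cytosolic aconitase while it carries an iron-sulfur cluster and binds IREs once the cluster is lost. Its level was 4.18, 4.07, 4.83 and 4.21 RPKM in KO trained libraries, against 4.55, 5.13, 5.16 and 4.69 RPKM in KO untrained libraries. These ranges overlapped, and the difference of -0.17 (SE 0.08) was not called by limma (adjusted p = 0.340). In WT it averaged 4.66 ± 0.349 RPKM in trained and 4.48 ± 0.240 RPKM in untrained mice (SD, n = 4 each), a difference of 0.05. The ratio of Ireb2 to Aco1 was 1.23 ± 0.087 in KO trained libraries, 0.810 ± 0.077 in KO untrained, 0.921 ± 0.13 in WT trained and 0.844 ± 0.053 in WT untrained libraries (SD, n = 4 each). Ireb2 exceeded Aco1 in 4 of 4 KO trained libraries and in 1 of the 12 others, WT trained library 4. Fbxl5, the iron-sensing ubiquitin ligase subunit that removes IRP2, averaged 9.88 ± 0.730 RPKM in KO trained, 9.52 ± 0.745 in KO untrained, 9.52 ± 1.06 in WT trained and 9.52 ± 0.466 in WT untrained muscle.

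Tfrc (chromosome 16, 32608896 to 32632794, plus strand), the receptor for transferrin-bound iron, varied most among the KO trained mice. It had 44.9, 41.2, 33.1 and 20.3 RPKM in KO trained libraries, against 21.5, 26.8, 17.8 and 19.6 RPKM in KO untrained libraries. In KO trained libraries 1 to 3 it exceeded every other library of the study, whereas KO trained library 4 lay inside the untrained range. The difference was 0.66 (SE 0.22) and was not called (adjusted p = 0.258), and without KO trained library 4 it was 0.90 (adjusted p = 0.170). In WT, Tfrc had 18.5, 29.1, 29.2 and 24.9 RPKM in trained libraries, against 28.1, 25.7, 24.4 and 20.0 RPKM in untrained libraries. The WT groups overlapped throughout, with a difference of 0.04 (SE 0.22).

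Fth1, the ferritin heavy chain that oxidises iron for storage, was lower on average in both trained groups. It had 852, 806, 803 and 901 RPKM in KO trained libraries, against 988, 969.7, 983 and 882 RPKM in KO untrained libraries. KO trained library 4 and KO untrained library 4 crossed, so the groups overlapped, with a difference of -0.19 (SE 0.08, adjusted p = 0.334, limma). In WT trained libraries Fth1 had 1080.1, 917, 847 and 774 RPKM, against 1017, 1088, 999 and 1125 RPKM in WT untrained libraries. WT trained library 1 lay inside the untrained range and the other 3 below it. The WT difference was -0.23 (SE 0.08, adjusted p = 0.245), and without WT trained library 1 it was -0.32 (adjusted p = 0.0198). Over both genotypes the training difference was -0.21 (SE 0.06, adjusted p = 0.0868), and without that library it was -0.25 (adjusted p = 0.00482). With the share of reads in the table's genes, which itself differed with training, as a covariate, the difference over both genotypes was -0.06 (adjusted p = 0.708).

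Ftl1 encodes the ferritin light chain, which helps the iron core to form. It had 152, 163, 179 and 263 RPKM in KO trained libraries, against 271, 201, 208 and 175 RPKM in KO untrained libraries, and 226, 177, 174 and 177 RPKM in WT trained libraries, against 182, 210.4, 176 and 279 RPKM in WT untrained libraries. Trained and untrained libraries overlapped in both genotypes, and the training difference was -0.19 (SE 0.18) in KO and -0.15 (SE 0.18) in WT. The summed level of 11 macrophage markers ran from 36.5 to 71.6 RPKM in KO trained, from 41.0 to 85.6 in KO untrained, from 47.9 to 78.8 in WT trained and from 36 to 72.7 in WT untrained libraries, and none of the 11 was at 0. In each group the library with the highest Ftl1 also had the highest macrophage sum. The part of macrophage RNA in the Ftl1 values was not tested, and in bulk tissue fewer cells of a type and less RNA per cell cannot be told apart. The ratio of Fth1 to Ftl1 averaged 4.61 ± 0.91 in KO trained, 4.55 ± 0.62 in KO untrained, 4.80 ± 0.33 in WT trained and 5.12 ± 0.76 in WT untrained libraries (SD, n = 4 each). GENCODE names 11 further genes or pseudogenes like Fth1 and 3 like Ftl1, none of them in the table, so reads from near-identical copies could be counted with these genes or lost.

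Alas1, the housekeeping enzyme of the first step of heme synthesis, overlapped between trained and untrained mice of both genotypes, and neither training difference was called. It averaged 45.6 ± 4.53 RPKM in KO trained and 45.3 ± 5.74 RPKM in KO untrained muscle, a difference of 0.01 (SE 0.09). In WT it averaged 49.99 ± 4.37 RPKM in trained and 46.1 ± 3.56 RPKM in untrained muscle (SD, n = 4 each), a difference of 0.12 (SE 0.09, adjusted p = 0.678). Fech, which inserts iron into protoporphyrin as the last step, was the least variable member over all 16 libraries, from 48.9 to 58.1 RPKM. It averaged 52.3 ± 2.35 RPKM in KO trained and 53.9 ± 2.86 in KO untrained muscle, and 53.6 ± 3.69 in WT trained and 56.6 ± 1.08 in WT untrained muscle. The differences, -0.04 in KO and -0.08 in WT (SE 0.06 each), were 0.02 and 0.01 when RPKM was rescaled to a common sum. That rescaling also moved the median of all genes tested, from -0.06 to 0.01 in KO and from 0.01 to 0.10 in WT.

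Alas2 is the erythroid form of the first enzyme and is normally made in red cell precursors. It had 1.44, 0.789, 1.93 and 2.89 RPKM in KO trained libraries, against 1.10, 1.33, 1.81 and 0.769 RPKM in KO untrained libraries, and 2.08, 1.49, 1.56 and 1.47 RPKM in WT trained libraries, against 1.40, 1.56, 1.09 and 1.118 RPKM in WT untrained libraries. These levels rest on 27 to 107 reads per library, the groups overlapped in both genotypes, and the training differences of 0.39 in KO and 0.33 in WT (SE 0.29 each) were not called. The 11 other erythroid genes measured summed to 216 to 666 RPKM in KO trained, 274 to 386 in KO untrained, 259 to 402 in WT trained and 305 to 447 in WT untrained libraries, with the transcription factor Gata1 at 0 in all 16. KO trained library 4, with the highest Alas2, also had the highest erythroid sum, 665.6 RPKM. The part of blood RNA in the Alas2 values was not tested, and Alas2 shares 311 exon bases on the other strand with Apex2, whose mean was 1.42 RPKM.

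**Figure D2:**
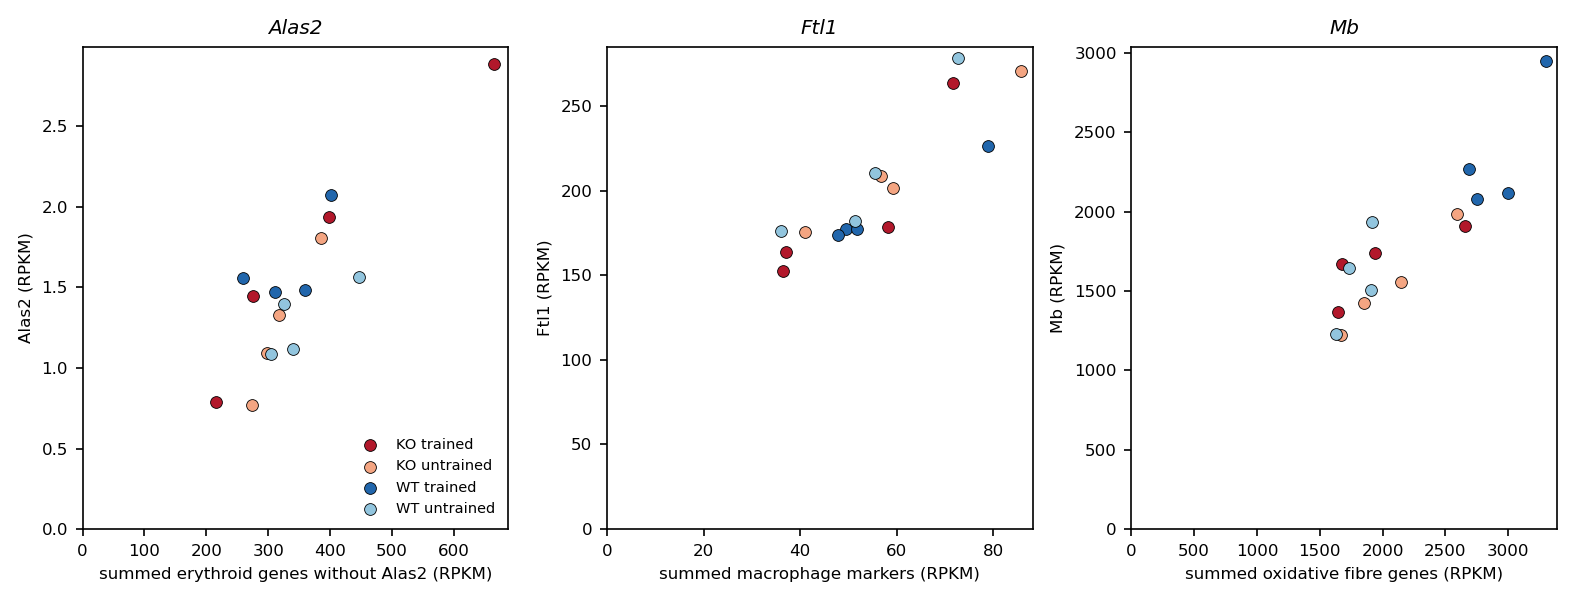
Level of Alas2, Ftl1 and Mb (vertical axes, RPKM) against the summed RPKM of 11 erythroid genes, 11 macrophage markers and 14 oxidative fibre genes (horizontal axes) in the 16 libraries, coloured by group. KO trained library 4 is the upper right point for Alas2 and WT trained library 1 is the upper right point for Mb.

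Hccs (chromosome X, 169311531 to 169320343, minus strand), the lyase that attaches heme to cytochrome c and c1, did not overlap between trained and untrained mice of either genotype. It had 9.09, 9.07, 9.45 and 9.84 RPKM in WT trained libraries, against 6.91, 7.57, 6.84 and 7.43 RPKM in WT untrained libraries, a difference of 0.38 (SE 0.06). In KO mice the gap was narrow, with 7.9997, 8.46, 8.95 and 7.95 RPKM in trained libraries, against 7.72, 7.89, 7.90 and 7.41 RPKM in untrained libraries, and a difference of 0.11 (SE 0.06). The gap in KO therefore rests on 7.95 RPKM in the lowest trained library, against 7.90 RPKM in the highest untrained library. Hccs shares 1335 exon bases on the other strand with Arhgap6, whose mean was 0.715 RPKM, and whether the authors' counting used strand is not given in the sources used here. Cycs, the cytochrome c that Hccs matures, is named because it passed the threshold. It had 126, 124, 127 and 118.04 RPKM in KO trained libraries, against 108, 99.9, 105 and 97.3 RPKM in KO untrained libraries, and 116, 125, 128 and 136 RPKM in WT trained libraries, against 106, 116.6, 103 and 106 RPKM in WT untrained libraries. In KO the groups did not overlap, and in WT only trained library 1 and untrained library 2 crossed. Cycs rose with training over both genotypes by 0.25 (SE 0.04, adjusted p = 0.0137, limma), 0.27 in KO and 0.23 in WT, and with the share of reads in the table's genes as a covariate it was 0.22 (adjusted p = 0.138).

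Mb (chromosome 15, 77015487 to 77050668, minus strand) was high in trained WT muscle. It had 2952, 2270, 2115 and 2079 RPKM in WT trained libraries, against 1504, 1932, 1229 and 1647 RPKM in WT untrained libraries. Every WT trained value lay above every WT untrained value, and the difference was 0.58 (SE 0.16), which is 1.496-fold, with an adjusted p of 0.125. In KO it had 1737, 1368, 1907 and 1668 RPKM in trained libraries, against 1555, 1427, 1983 and 1224 RPKM in untrained libraries. The KO groups overlapped throughout, with a difference of 0.12 (SE 0.16, adjusted p = 0.744). The WT difference was called under 4 of 27 alternatives: quantile normalization (0.66, adjusted p = 0.0133), rescaled RPKM (0.67, adjusted p = 0.0213), the count test on recovered reads (0.58, adjusted p = 0.0480) and the share covariate (0.81, adjusted p = 0.0491). Among the other alternatives its adjusted p reached 0.357 (limma). Those 4 alternatives also called more of all genes tested, 155, 395, 134 and 79 in that order, against 19 in the main fit. The ratio of Mb to Fth1 was 1.99 ± 0.29 in KO trained, 1.61 ± 0.28 in KO untrained, 2.60 ± 0.13 in WT trained and 1.49 ± 0.22 in WT untrained libraries (SD, n = 4 each).

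Oxidative fibres, which are rich in myoglobin and include slow and fast type 2A fibres, were followed through 14 genes. Ckmt2, the mitochondrial creatine kinase of muscle, and Myh2, the myosin of fast type 2A fibres, had the highest levels of the 14, with means of 781 and 422 RPKM in KO trained, 705 and 448 in KO untrained, 999 and 632 in WT trained, and 700.2 and 382 in WT untrained libraries. The slow myosin Myh7 averaged 27.8 RPKM in KO trained, 31.7 in KO untrained, 51.3 in WT trained and 12.3 in WT untrained libraries, so the sum is not a measure of slow fibres alone. The sum of the 14 ran from 1641 to 2653 RPKM in KO trained and from 1669 to 2590 RPKM in KO untrained libraries, and from 2690 to 3304 RPKM in WT trained and from 1630 to 1912 RPKM in WT untrained libraries. The sum thus separated trained from untrained WT mice without overlap, as Mb did, and overlapped in KO mice, and none of the 14 genes was at 0. In KO mice, library 3 had the highest Mb and the highest sum of its group in both trained and untrained mice. The sum of 13 fast glycolytic genes ran from 82646 to 91944 RPKM in KO trained, 91692 to 94122 in KO untrained, 82290 to 90784 in WT trained and 99479 to 109884 in WT untrained libraries. The sum of 10 tendon genes ran from 100.5 to 235 RPKM in KO trained, 150.2 to 264 in KO untrained, 211 to 275 in WT trained and 124 to 159 in WT untrained libraries, so that it too separated trained from untrained WT mice, and none of the 10 was at 0. The part of fibre make-up, tendon, or the piece of muscle sampled in the Mb difference was not tested.

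With training, no member that could be tested passed the threshold. In WT mice 0 of the 8 members not chosen for training passed, where 0.187% of all genes tested did, and Mb and Fth1 had an unadjusted p under 0.05, as 11.8% of genes did. Of these 8, Mb alone did not overlap between trained and untrained WT mice, as 6.37% of genes did not. In KO mice 0 of 8 passed, where the share of all genes was 0.00%, and Aco1, Tfrc and Fth1 had an unadjusted p under 0.05, as 13.7% of genes did. No member of the 8 was free of overlap in KO, where 9.43% of genes were. Over both genotypes 0 of 8 passed, against 0.777% of all genes tested, and Tfrc (0.35, adjusted p = 0.259), Fth1 and Mb (0.35, adjusted p = 0.130) had an unadjusted p under 0.05, as 18.0% of genes did. These shares moved with single libraries. Without WT trained library 1, 1044 genes passed over both genotypes and 106 in KO mice, against 79 and 0 with all 16 libraries. Without WT trained library 4, 18 passed over both genotypes. With the share of reads in the table's genes as a covariate, 0 genes passed over both genotypes. With voom on the recovered reads, the count test, both Fth1 (-0.19, adjusted p = 0.0244) and Mb (0.37, adjusted p = 0.0491) were called over both genotypes. That test called 269 of the 10171 genes over both genotypes, against 79 in the main fit. Ireb2 and Hccs differed by 0.29 (SE 0.06) and 0.24 (SE 0.04) over both genotypes, given as a description.

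**Figure D3:**
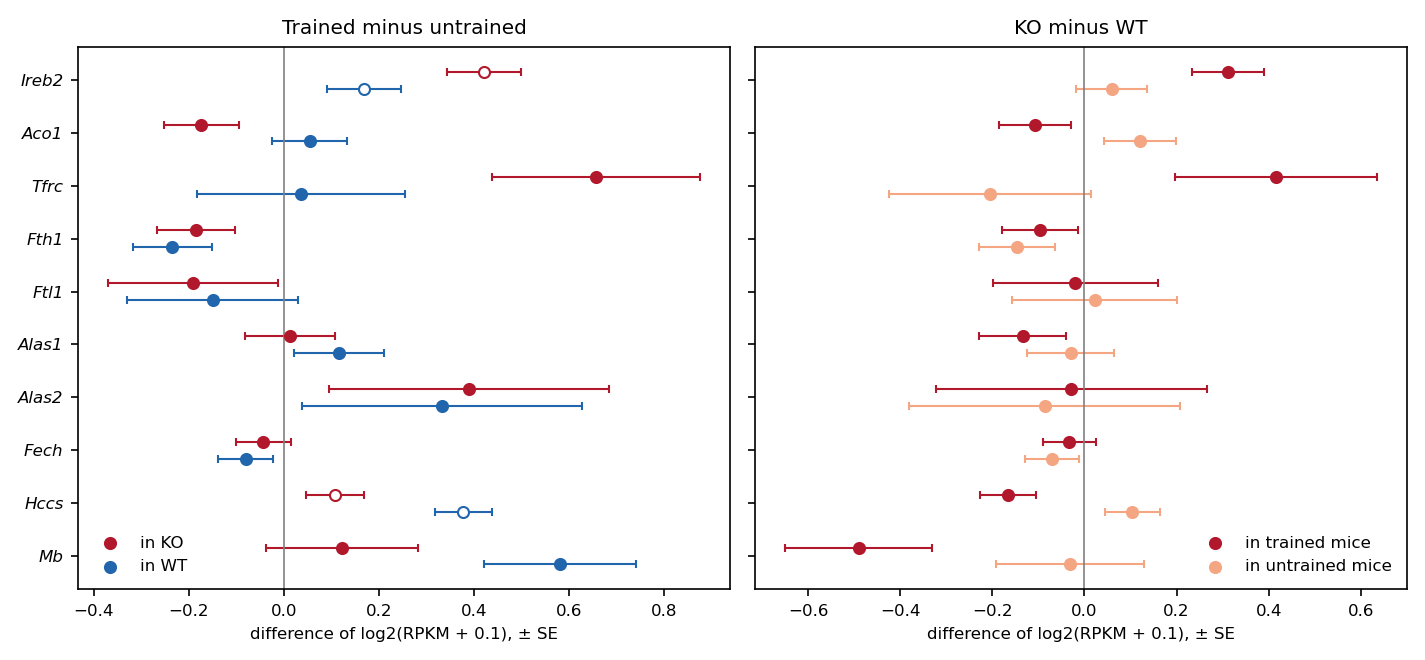
Differences of log2(RPKM + 0.1) with SE for the 10 transcripts: trained minus untrained in KO and in WT mice (left), and KO minus WT in trained and in untrained mice (right), from 4 libraries per group. Open points mark Ireb2 and Hccs in the training differences, for which they were chosen. Tfrc has the largest training difference in KO, 0.66, and Mb in WT, 0.58.

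Whether training acted differently in the absence of Il13 was asked by the difference of the 2 training responses, KO minus WT. No gene of the 10171 was called, 0.00%, so none of the 8 members was, and 8.40% of genes had an unadjusted p under 0.05 while none of the 8 did. The largest were Tfrc at 0.62 (SE 0.31, adjusted p = 0.624), Mb at -0.46 (SE 0.23, adjusted p = 0.613) and Aco1 at -0.23 (SE 0.11, adjusted p = 0.604). The responses of these 3 transcripts in KO and WT are therefore not shown to differ. Ireb2 and Hccs, given without a test, differed in opposite directions, by 0.25 (SE 0.11) and -0.27 (SE 0.09).

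KO and WT mice were compared in each training state, a contrast that did not choose the members. It shares its libraries with the training contrasts that chose Ireb2 and Hccs, so the p-values of these members here are not independent of that choice. In trained mice 0 of 10 members passed, where 0.0885% of genes did. Of the members not chosen for training, Mb alone did not overlap between genotypes, as 8.48% of genes did not. Mb was also the only one of them with an unadjusted p under 0.05, as 13.9% of genes had. Ireb2 was higher in all 4 KO libraries (0.31, SE 0.08, adjusted p = 0.184, limma), and Hccs (-0.17, SE 0.06, adjusted p = 0.256) and Mb (-0.49, SE 0.16, adjusted p = 0.232) were lower in all 4. Mb had at most 1907 RPKM in KO trained mice, against at least 2079 RPKM in WT trained mice. The oxidative fibre sum did not overlap either, by a narrow gap, with 2653 RPKM at most in KO trained, against 2690 RPKM at least in WT trained libraries. The 2653 RPKM was that of KO trained library 3, while libraries 1, 2 and 4 of that group had 1940, 1641 and 1680 RPKM.

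In untrained mice 0 of 10 members passed, where 0.0492% of genes did, and Fth1 alone did not overlap, as 3.95% of genes did not. None of the 10 had an unadjusted p under 0.05, where 6.20% of genes did. Fth1 was lower in all 4 KO untrained libraries, at most 988 RPKM, against at least 999 RPKM in WT untrained libraries (-0.15, SE 0.08, adjusted p = 0.780), and under quantile normalization the difference was 0.03. Over both training states 0 of 10 passed, where 0.0787% of genes did. Of the members not chosen for training, Mb alone (-0.26, SE 0.11, adjusted p = 0.377) had an unadjusted p under 0.05, as 12.2% of genes did. Ireb2 differed by 0.19 (SE 0.06, adjusted p = 0.297), from 0.31 in trained and 0.06 in untrained mice. Its p-value is not independent of its choice, which used the same libraries.

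The wider pathways were read from 9 lists of genes. Over both genotypes, Cycs, described above, was called among the 4 genes of the cytochrome list other than Hccs.

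In the lists of iron regulatory proteins, IRE mRNAs, iron uptake, storage and export, heme synthesis, heme transport, cytosolic iron-sulfur assembly and globins, no non-member was called in any of the 7 contrasts. Of 9 heme synthesis genes, 6 were higher and 3 lower in trained mice over both genotypes, with a median of 0.03, against -0.02 for all genes tested. Uros, which closes the porphyrin ring, had the smallest p of the non-members there (-0.13, adjusted p = 0.271). Of 15 tested genes of iron uptake, storage and export, 6 were higher and 9 lower, with a median of -0.07, and 8 were higher after rescaling. Before rescaling, 41.7% of all genes tested were higher. Rescaling raised the median of all genes tested from -0.02 to 0.05, and of the 484 genes then called, 436 were higher. Counts and calls with and without rescaling, here and below, therefore do not share a zero point. Slc40a1, the iron exporter ferroportin, averaged 9.57 ± 0.463 RPKM in KO trained and 8.47 ± 0.553 in KO untrained mice, and 9.30 ± 0.502 in WT trained and 8.56 ± 0.317 in WT untrained mice (0.15, adjusted p = 0.110, against 0.23 and adjusted p = 0.0301 after rescaling). Of 13 tested genes of heme transport and breakdown, 5 were higher and 8 lower, or 9 and 4 after rescaling, and Slc48a1, which carries heme out of lysosomes, had -0.17 (adjusted p = 0.0871, and 0.0459 with voom). Of 9 cytosolic iron-sulfur assembly genes, 4 were higher and 5 lower, or 8 and 1 after rescaling, and Nubp1, a scaffold protein of that assembly, had -0.15 (adjusted p = 0.338). Cygb, the cytoglobin of fibroblast-like cells, had -0.16 (adjusted p = 0.467), the sign opposite to that of Mb.

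Between genotypes over both training states, 9 of 9 heme synthesis genes were lower in KO, with a median of -0.08. For all genes tested the median was -0.02, and 40.4% were higher in KO. Of the 9, 0 were called, where 0.0787% of all genes were, and 3 had an unadjusted p under 0.05, as 12.2% of all genes did. The count below 0 depended on scaling, since 8 of 9 were lower under quantile normalization, 9 of 9 with voom and 5 of 9 after RPKM was rescaled to a common sum. Rescaling also moved the median of all genes tested, from -0.02 to 0.05, so counts with and without it do not share a zero point. Of 21 genes of mitochondrial iron import and iron-sulfur clusters, 17 were lower in KO, with a median of -0.07, against -0.02 for all genes tested. Among these 21, 0 were called, where 0.0787% of all genes were. An unadjusted p under 0.05 was held by 6 of them, all lower in KO, as by 12.2% of all genes in either direction. After rescaling, with its shifted median of all genes, 10 of 21 were lower. Bola3, a carrier for mitochondrial iron-sulfur clusters named here after its values were seen, averaged 94.9 ± 4.81 RPKM in KO trained, 111 ± 6.91 in KO untrained, 123 ± 16.7 in WT trained and 123 ± 10.8 RPKM in WT untrained muscle (-0.26, adjusted p = 0.266).

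**Figure D4:**
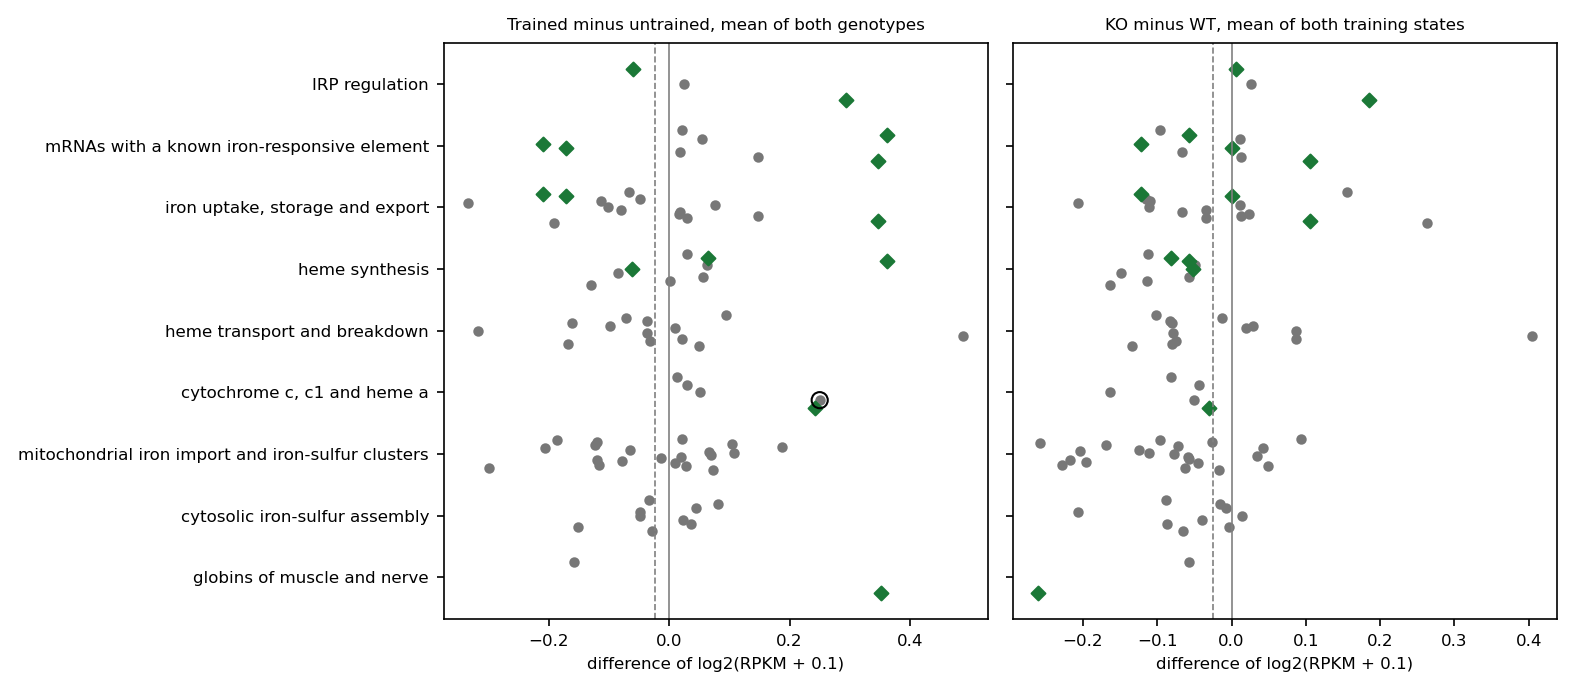
Differences of log2(RPKM + 0.1) for tested genes of 9 lists, trained minus untrained (left) and KO minus WT (right), each averaged over the other factor. Green diamonds are members, grey points other genes, the black ring the called gene Cycs, at 0.25 with training, and the dashed line is the median of all genes tested; genes not reported here are not drawn on the left.

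The genes that followed each member most closely over the 16 libraries were taken as the 3 with the highest Pearson correlation of log2(RPKM + 0.1), as a description in which libraries share depth, composition and group. Ireb2 went with Xpo1 (r = 0.958), Cops2 (0.940) and Ppp1cb (0.939), and Fth1 with Eif3h (0.961) and Gpx4 (0.954). Mb went with Mdh1 (0.954), Fndc5 (0.952) and Hadh (0.945), and Hccs with Oxct1 (0.944), Ndufaf1 (0.918) and Ank2 (0.907). Among these, Mdh1, Hadh, Oxct1 and Ndufaf1 encode enzymes or assembly factors of energy metabolism. Ftl1 went with Hmox1 (0.945), the heme oxygenase that frees iron from heme, Tyrobp (0.930), an adaptor of myeloid receptors, and Mmp2 (0.918), a matrix protease. Alas2 went with the globin genes Beta-s (0.831) and Hba-a1 (0.83) and with Eid2 (0.823). The remaining members had their closest genes at 0.892 for Alas1 (Trp53inp2), 0.876 for Tfrc (Fastkd2), 0.903 for Fech (Rps27a) and 0.883 for Aco1 (Vit). Between members, the highest correlation was that of Fth1 with Fech (0.848) and the lowest that of Fth1 with Ireb2 (-0.825), followed by Ftl1 with Tfrc (-0.701). Hccs and Mb had 0.709, and Ireb2 and Tfrc 0.645.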

How the data were processed

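Poly(A) RNA of 16 gastrocnemius muscles was sequenced from stranded libraries, per the labels' protocols. RPKM was computed by the authors per gene, per the file headers, on mm10, the build in the submitters' processing notes. Which aligner, annotation and strand setting they used is not given in the sources used here. Mouse identifiers in the labels tied each column to its sample.

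Members, lists and tests were chosen with earlier results of these data known. All 10 members are named. From each list the rule names non-members past the threshold or, where a list had none, the gene with the smallest p in each of the 2 contrasts averaged over the other factor. Some genes that the rule names are left out and not reported here.

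Deposited RPKM corresponded to whole reads for 100.00% of non-zero values, to within 0.01 read. Log2(RPKM + 0.1), which understates the change of low genes, was fitted with limma 3.58.1 (trend, robust, statmod 1.5.0) in R 4.3.3 for genes reaching 1 RPKM in 4 or more of the 16 libraries, with 1 mean per group, 7 contrasts and a threshold of 0.05. P-values are two-sided, and mice are taken as separate from the identifiers. Ireb2 and Hccs got no test in training contrasts. The count alternative was limma's voom on the recovered reads with trimmed-mean (TMM) factors computed from them. The fit was tested on simulated reads with known changes in WT training and the same biological spread set for all genes. The simulation left out differences in composition and quality between libraries, so it does not cover the shifts seen without single libraries. Altogether 27 alternatives were run, 16 of them leaving out 1 library each. No sequencing batch or date is given in the labels. Sequences were read from GENCODE M21. Python 3.11.15, NumPy 2.4.6, pandas 2.3.3 and matplotlib 3.10.9 were used for reads and plots.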

Additional observations from a re-analysis of the deposited data

Results flagged for a closer look

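Within each group of 4, the highest or lowest value of a member was set against the others, and 4 of the 40 groups held a value far from the rest by Dixon's criterion, which flags about 1 group in 20 by chance. Ireb2 in KO untrained library 4 was 4.263 RPKM, above the other 3 libraries of its group, and Fth1 in the same library was 881.7 RPKM, below the other 3. In WT trained library 1, Ftl1 was 226.4 RPKM and Alas2 was 2.076 RPKM, both above the other 3. That library also had the highest share of reads in the table's genes, 83.5%, and the highest Mb, Fth1, macrophage sum and oxidative fibre sum of its group.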

How the results depend on the processing

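The count of members called in WT training, 0, was 1 under 6 alternatives: Mb under quantile normalization, voom, rescaled RPKM and the share of reads in the table's genes as a covariate (chosen after seeing the data), and Fth1 with weights per library and without WT trained library 1. Over both genotypes the count was 1 with quantile normalization, weights per library, rescaled RPKM and without WT trained library 1, and 2 with voom. Leaving out 1 library gave 0 to 1 members in both contrasts. The counts of the other 5 contrasts were 0 under all alternatives run, and no called value changed sign. The causes of these changes were not tested.

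The replicate number used as a block gave 0 members in each of the 7 contrasts. Genes called among all tested numbered 16 with the replicate block in WT training, against 19 without it, and 31 against 79 over both genotypes. Whether the numbers pair the mice is not given in the labels. Same-numbered deviations correlated at -0.113, -0.05, 0.044 and 0.109 in WT and at 0.149, 0.191, 0.442 and 0.052 in KO. The KO values were all above 0, and such correlations cannot decide whether mice were paired. Over all genes tested, the WT training count ran from 0 to 395 over the alternatives, with 395 after rescaling, 329 with weights per library, 272 without WT trained library 1 and 0 without WT trained library 3 or 4 or WT untrained library 3. Depth limits Alas2 most, with 27 reads in its lowest library.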
